A study of Mus musculus with 4 samples.

Results

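A set of 9 genes of the insulin-like growth factor (IGF) and insulin system was described across the cell classes of mouse retina: the ligand Igf2, the binding protein genes Igfbp3, Igfbp4, Igfbp5 and Igfbp7, the receptor genes Igf1r and Insr, and the receptor substrate genes Irs1 and Irs2. They were chosen by symbol, with earlier results of these data known, and all 9 were found among the 55357 genes of the deposited matrices. The study compared retinas labelled Control with retinas labelled Diabetic, with 2 single-cell RNA libraries in each group, made with 10x Genomics 3′ chemistry from live cells. These had been enriched on beads through CD31, the adhesion molecule PECAM1 on the surface of vessel lining cells. The mouse strain, the age, the model and duration of diabetes and the treatment of the Control mice are not given in the sources used here. Whether both libraries of a group are from different animals is not given either, so every p-value measures only the spread between these libraries, which may be technical.

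IGFs and insulin are hormones of one family that bind the receptor tyrosine kinases encoded by Igf1r and Insr. The activated receptors phosphorylate the substrate proteins IRS1 and IRS2, which recruit phosphoinositide 3-kinase, and the downstream kinase AKT keeps FOXO transcription factors out of the nucleus. Secreted binding proteins hold IGFs in the extracellular space, where proteases release them. IGFBP7 is a more distant member that binds IGFs weakly and is deposited around vessels. In the retina, IGF signalling is known for its part in the growth of vessels.

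Cells were assigned to classes by marker genes, none of which was a member. Of 19716 barcodes kept, 6485 fell in no class, and the label of CD31+ cells described only some of the rest: rods made up 9240 of the 13231 barcodes in a class and endothelial cells 2384. Endothelial cells numbered 497 and 219 in Control 1 and 2 and 1110 and 558 in Diabetic 1 and 2, with 1292853 to 4635625 unique molecular identifiers (UMIs) per library. Their 15 endothelial markers were all detected. Pericytes, the contractile cells around capillaries, numbered 30 to 61 per library with only 73380 to 115626 UMIs. The rule allowed rod markers in cones and pericyte markers in smooth muscle cells. The cone libraries held cone markers at 11359.5 to 13444 CPM beside rod markers at 46285 to 49914 CPM, against 55565 to 62595 CPM of rod markers in rods, so values given for cones are those of barcodes with markers of both classes. Smooth muscle libraries held pericyte markers at 12372 to 18157 CPM beside 15103 to 22224 CPM of their own. Levels are UMIs of a gene per 1000000 UMIs of the class (CPM). Because the library reads the 3′ ends of transcripts, CPM were not divided by gene length. The median share of mitochondrial UMIs was lower in both Diabetic libraries, 2.46% and 3.24%, than in both Control libraries, 4.33% and 4.45%, and its part in the results below was not tested. In endothelial cells, 5 erythrocyte genes summed to 3006 and 81.2 CPM in Control against 5783 and 9027 CPM in Diabetic libraries, 9 neutrophil markers to 4.64 and 14.7 against 40.8 and 33.1 CPM, and 7 fibroblast markers to 6.50 and 7.73 against 25.02 and 75.3 CPM. In venous cells the erythrocyte sum was 22.6 and 17.9 against 4677 and 11711 CPM. These moved with the groups, and their part in the endothelial results was not tested.

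In endothelial cells 3 binding protein genes were higher in the Diabetic libraries, Igfbp4 by about 4.48 times, Igfbp3 by 2.22 times and Igfbp7 by 2.11 times as ratios of group means, while the receptor genes Igf1r and Insr differed little between the 4 libraries. Of the 9 members, 6 passed the filter on low counts there, and 3 of these 6 were called higher and none lower at an adjusted p under 0.05 (edgeR's quasi-likelihood test with Benjamini-Hochberg adjustment). Among all 11705 genes tested in endothelial cells, 2.96% were called higher and 1.68% lower. The median log2 fold change of the 6 members was 0.98 and that of all tested genes was -0.01. The members were chosen with earlier results of these data known, so their share and median are a description and no test of the set. The remaining 3, Igf2, Irs1 and Irs2, had too few UMIs for the test.

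**Figure D1:**
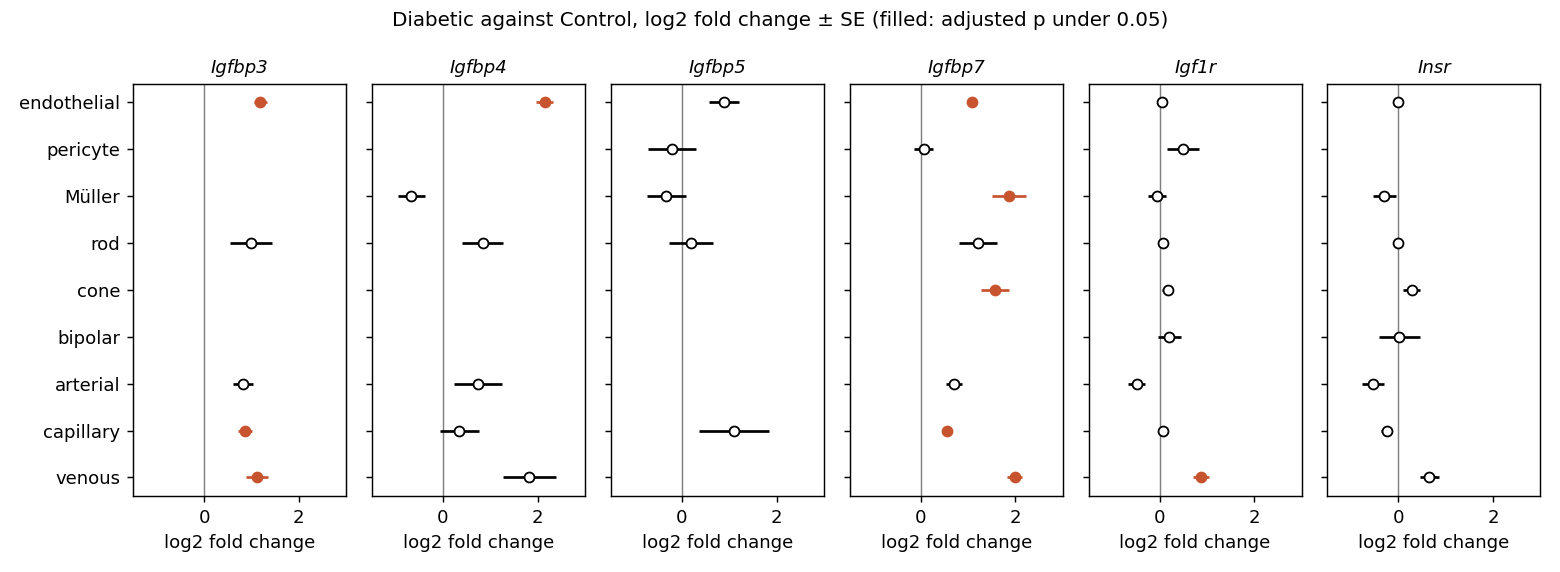
Fitted log2 fold change of Diabetic against Control, on the x axis, with its SE as the bar, for 6 members in 6 cell classes and 3 endothelial subtypes; filled points have an adjusted p under 0.05 and a missing point marks a gene under the filter on low counts. In endothelial cells the points of Igfbp3, Igfbp4 and Igfbp7 lie at 1.19, 2.15 and 1.08, and those of Igf1r and Insr at 0.05 and -0.01.

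The promoters of the 3 genes called higher in endothelial cells are shown. Each runs 5′ to 3′ along the strand of the gene from 250 bases before to 50 bases after the start of transcription, from the RefSeq promoter table of build GRCm38.p6, in which 8 of the 9 members were found and Insr was not matched. Capitals mark matches, on either strand, to GGGCGG (a GC box), TATAAA or TATATA (forms of a TATA box), CACGTG (an E-box), TGTTTAC (a FOXO site), TTCNNNGAA (a STAT site) or TGACGTCA (a cyclic AMP response element).
Igfbp3, chr11:7213874-7214173, minus strand: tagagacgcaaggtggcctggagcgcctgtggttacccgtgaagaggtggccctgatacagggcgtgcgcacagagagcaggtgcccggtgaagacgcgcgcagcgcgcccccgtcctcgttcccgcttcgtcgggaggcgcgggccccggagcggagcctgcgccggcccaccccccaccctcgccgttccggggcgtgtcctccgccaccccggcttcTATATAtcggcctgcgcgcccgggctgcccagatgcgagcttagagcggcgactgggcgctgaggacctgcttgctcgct
Igfbp4, chr11:99040994-99041293, plus strand: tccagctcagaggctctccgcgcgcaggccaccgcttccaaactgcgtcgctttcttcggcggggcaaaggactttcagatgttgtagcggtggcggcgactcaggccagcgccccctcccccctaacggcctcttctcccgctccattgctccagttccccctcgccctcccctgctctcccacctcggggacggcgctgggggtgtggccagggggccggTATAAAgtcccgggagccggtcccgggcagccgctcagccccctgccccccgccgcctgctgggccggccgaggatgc
Igfbp7, chr5:77407996-77408295, minus strand: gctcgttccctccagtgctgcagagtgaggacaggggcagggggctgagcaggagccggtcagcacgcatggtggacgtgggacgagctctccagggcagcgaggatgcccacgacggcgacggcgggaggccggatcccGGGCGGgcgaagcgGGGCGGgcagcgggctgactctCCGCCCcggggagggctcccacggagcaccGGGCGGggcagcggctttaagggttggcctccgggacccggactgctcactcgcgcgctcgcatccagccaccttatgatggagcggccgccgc
Igfbp3 and Igfbp4 each held 1 TATA form close before the start, TATATA in Igfbp3 and TATAAA in Igfbp4, and no GC box, whereas Igfbp7 held 4 GC boxes and no TATA form. Of 32851 mouse promoters of this length, 35.7% held GGGCGG, 13.6% TATAAA and 5.67% TATATA. None of the 3 held the E-box, FOXO, STAT or cyclic AMP motif in this window, and these are in 7.15%, 3.65%, 8.30% and 1.79% of all promoters. Such matches describe letters and not binding.

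Igfbp7 lies on chromosome 5 at 77349240 to 77408041 (GRCm38, GENCODE annotation), on the minus strand, and overlaps Polr2b and Gm34648 on the opposite strand. Whether the counting used strand is not given in the sources used here. It was the most abundant member in the vessel wall. In pericytes Igfbp7 stood at 3676 and 3679 CPM in Control against 4407 and 3693 CPM in Diabetic libraries, and in endothelial cells at 1430 and 1505 CPM against 3068 and 3112 CPM. The endothelial groups did not overlap and libraries within a group differed by far less than the groups did. The endothelial log2 fold change of Igfbp7 was 1.08 ± 0.09 (SE, n = 2 and 2, adjusted p = 4.72e-05, edgeR). In pericytes it was 0.06 ± 0.20 (SE, adjusted p = 0.975, edgeR), where none of 2200 tested genes was called, 0% of the background, by edgeR or by DESeq2, and 177 had an unadjusted p under 0.05.

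The change of Igfbp7 differed between the vessel cell types: the log2 fold change in pericytes minus that in endothelial cells was -0.99 ± 0.18 (SE, adjusted p = 0.000275, edgeR's test of the interaction, in which 0.113% of 9728 genes were called). With 1 library left out this difference stayed between -1.09 and -0.86, but its adjusted p rose to 0.91 without Control 1, 0.0922 without Diabetic 1 and 0.558 without Diabetic 2. The Igfbp7 levels of pericytes and endothelial cells were apart in every library pair, with pericytes above. Pericyte markers summed to 1779 and 1494 CPM in Control against 1556 and 1541 CPM in Diabetic endothelial cells. None of the 10 was at 0, and Rgs5 held 72.5% to 79.2%. The gate itself limited this list in endothelial barcodes, to 0.5 of the pericyte minimum of 90 per 10000 UMIs. The part of pericyte RNA in the endothelial Igfbp7 levels was not tested.

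Outside the vessel wall Igfbp7 was low. Its Diabetic libraries lay above its Control libraries in Müller glia, cones, rods, bipolar cells and microglia or macrophages, and the change was called in cones and Müller glia. Group means were 18.2 against 35.2 CPM in bipolar cells and 15.8 against 54.4 CPM in microglia or macrophages, neither tested within the class. No difference from the endothelial change was called in edgeR's test of the interaction. It was 0.15 ± 0.37 in rods and 0.53 ± 0.38 in cones. In bipolar cells it was -0.28 ± 0.72 and in Müller glia 0.78 ± 0.40 (all SE). Müller glia span the retina and support its neurons. Their Igfbp7 level was 13.7 and 25.5 CPM in Control against 91.1 and 49.1 CPM in Diabetic libraries, with a log2 fold change of 1.87 ± 0.36 (SE, adjusted p = 0.00392, edgeR). Cones had 12.54 and 9.25 CPM against 37.8 and 26.4 CPM, a log2 fold change of 1.57 ± 0.30 (SE, adjusted p = 0.000271, edgeR). Among all tested genes 0.517% were called higher in Müller glia and 0.877% in cones. Both calls were lost without Control 2 (adjusted p = 0.248 in Müller glia and 0.0807 in cones) and without Diabetic 1 (0.408 and 0.287), and that of cones with a stricter gate (0.143). DESeq2 gave no adjusted p for Igfbp7 in either class. Rods had 23.9 and 9.58 CPM in Control against 54.7 and 30.6 CPM in Diabetic libraries, which was not called (1.21 ± 0.39, SE, adjusted p = 0.101, edgeR, with 8.95% of 16516 genes called in rods). The sum of the 15 endothelial markers moved with Igfbp7 in cones, at 145 and 120 CPM in Control against 327 and 200 CPM in Diabetic libraries. In rods it was 310 and 130 against 412 and 255 CPM. There its groups overlapped, and within each group the library with more Igfbp7 also had the higher sum. At most 2 of the 15 markers were at 0 in a cone library, Cdh5 and Tie1 in Control 1 and Emcn in Control 2, and none in rods. In Müller glia that sum was 2139 and 1939 CPM against 2266 and 1968 CPM, led by Flt1 or Kdr in each library, and 1 marker was at 0 in Diabetic 2. Other lists did move in Müller glia. The 8 smooth muscle markers summed to 9.62 and 7.09 CPM in Control against 37.6 and 19.7 CPM in Diabetic libraries, with 4 and 5 against 2 and 4 of them at 0, Cnn1 and Pln in every library. Smooth muscle cells, not tested, had Igfbp7 at 2970 to 4609 CPM. Their mean was 3211 CPM in Control against 4421 CPM in Diabetic libraries, and the groups did not overlap. The 9 neutrophil markers summed to 17.9 and 19.9 against 53.5 and 63.9 CPM, led by G0s2. Pigment epithelium markers stood at 1769 CPM in Diabetic 2 and at 28.9 to 45.6 CPM in the other libraries. The part of these cells in the Müller call was not tested. Igfbp7 over all kept barcodes was 266 and 317 CPM in Control against 752 and 750 CPM in Diabetic libraries, and the part of RNA from other cells in these low levels was not tested.

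Within the endothelium the change of Igfbp7 was largest among the tested subtypes in venous cells. Venous endothelial cells stood at 738 and 1072 CPM in Control against 3335 and 3740 CPM in Diabetic libraries, a log2 fold change of 1.99 ± 0.15 (SE, adjusted p = 1.13e-12, edgeR, with 2.13% of genes called higher in venous cells). Capillary cells went from 1522 and 1672 CPM to 2517 and 2230 CPM, 0.55 ± 0.10 (SE, adjusted p = 0.00673, edgeR, with 0.953% called higher). Arterial cells stood at 1789 and 1576 CPM against 2578 and 2913 CPM, 0.71 ± 0.17 (SE, adjusted p = 0.0642, edgeR, not called, with 0.300% called higher), which DESeq2 called (adjusted p = 0.0482). In each of the 3 subtypes both Diabetic libraries lay above both Control libraries. The venous change exceeded the capillary one by 1.46 ± 0.12 (SE, adjusted p = 1.04e-15) and the arterial one by 1.28 ± 0.16 (SE, adjusted p = 1.60e-12) in edgeR's tests of the interaction, in which 0.852% and 1.32% of genes were called. Arterial and capillary changes did not differ beyond their error, at 0.15 ± 0.16 (SE, adjusted p = 0.930, edgeR, with 0.106% called). The capillary call was lost without Diabetic 1 (adjusted p = 0.382) or Diabetic 2 (0.0706), while the venous one passed in all 6 alternatives run for it. Venous cells were few in Control, 43 and 24, against 142 and 79 in Diabetic libraries.

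**Figure D2:**
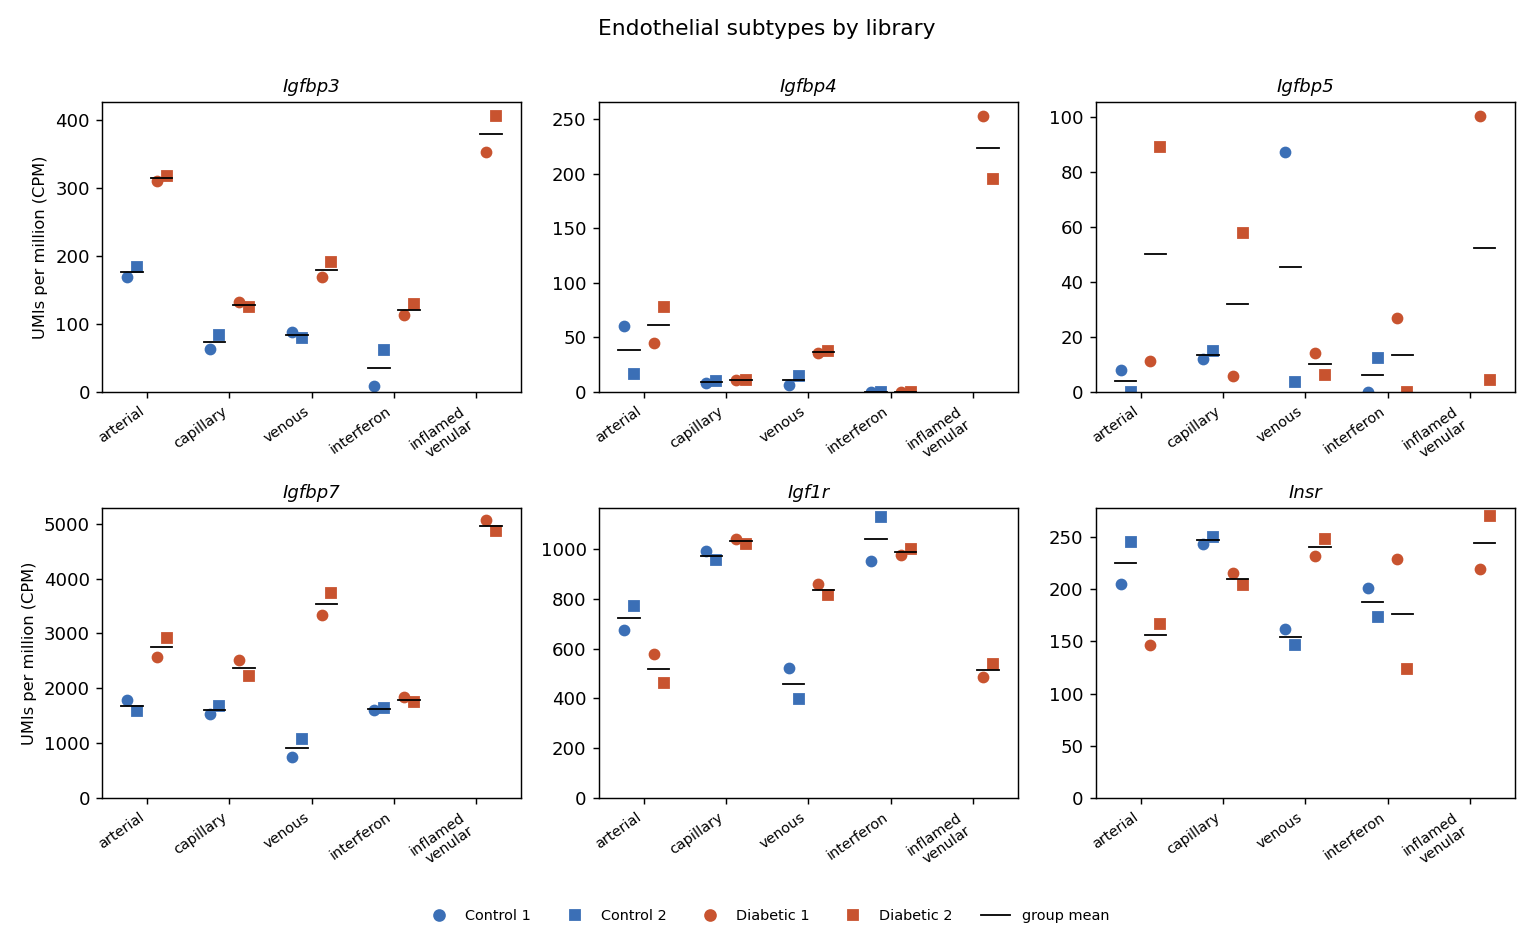
CPM (y axis) of 6 members in 5 endothelial subtypes, 1 point per library and a line at the group mean; inflamed venular cells occurred in the Diabetic libraries only. Igfbp7 in venous cells lies at 738 and 1072 CPM in Control against 3335 and 3740 CPM in Diabetic libraries, and Igfbp4 stands out in inflamed venular cells at 253 and 195 CPM.

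A further endothelial subtype occurred in the Diabetic libraries only. It was chosen by 9 markers of inflamed venules, among them Lcn2, Lrg1, Vcam1 and Icam1, so their level in it is no result. It held 103 of 1110 and 60 of 558 endothelial cells in Diabetic 1 and 2. In Control 1 and 2 none of 497 and 219 endothelial cells met the rule, which allows shares of up to 0.604% and 1.37% for counting error. In these cells Igfbp7 stood at 5069 and 4867 CPM, Igfbp3 at 353 and 406 CPM and Igfbp4 at 253 and 195 CPM. For all 3 genes these were above every other tested or untested named endothelial subtype in the same library. Their Igf1r level, 486 and 538 CPM, was below that of capillary and venous cells of the same libraries. With no such cells in Control, no test was made. Markers of this subtype were also higher in Diabetic venous cells, 535 and 713 CPM against 214 and 347 CPM in Control, with 1 or 2 of the 9 at 0 against 6 and 3; its part in the venous changes was not tested.

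Igfbp4, whose protein is cleaved by the protease PAPP-A, lies on chromosome 11 at 99041244 to 99054392 on the plus strand and overlaps no other annotated gene. In endothelial cells it went from 14.4 and 12.4 CPM to 59.8 and 60.2 CPM, from 31 and 16 UMIs to 277 and 204. The groups were far apart, with a log2 fold change of 2.15 ± 0.18 (SE, adjusted p = 4.21e-05, edgeR). Inflamed venular cells held most of these UMIs. They were 9.28% and 10.8% of Diabetic endothelial cells but held 204 of 277 Igfbp4 UMIs in Diabetic 1, 73.6% (exact 95% interval 68.0% to 78.7%), and 139 of 204 in Diabetic 2, 68.1% (61.3% to 74.5%). These intervals cover counting error only. Without those cells Igfbp4 stood at 19.1 and 24.3 CPM in the Diabetic libraries and the call was lost, at 0.65 ± 0.26 (SE, adjusted p = 0.259, edgeR).

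Among the tested subtypes Igfbp4 was called in none. Venous cells had 6.47 and 14.3 CPM in Control against 35.5 and 37.5 CPM in Diabetic libraries, which rested on 2 and 4 against 28 and 24 UMIs (log2 fold change 1.83 ± 0.56, SE, adjusted p = 0.0605, edgeR). Capillary cells, the largest subtype, stayed near 10 CPM, at 7.78 and 9.95 against 10.998 and 10.8 CPM (0.35 ± 0.42, SE, adjusted p = 0.824, edgeR). Arterial cells ranged from 16.3 to 77.6 CPM and their groups overlapped. Interferon-marked endothelial cells had no Igfbp4 UMI in any library.

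Of the 6 tested classes Müller glia had the highest mean Igfbp4 level over the 4 libraries, but in both Diabetic libraries endothelial cells stood above them. In Müller glia both Diabetic libraries lay below both Control libraries, at 43.6 and 41.8 against 59.1 and 78.0 CPM. That difference was not called (-0.66 ± 0.29, SE, adjusted p = 0.398, edgeR). The difference between the classes was called: the Igfbp4 change in Müller glia minus that in endothelial cells was -2.80 ± 0.36 (SE, adjusted p = 6.44e-08, edgeR, with 0.488% of 11271 genes called). It stayed between -3.13 and -2.52 in 6 alternatives. None of these left out the inflamed venular cells, which held most Diabetic endothelial Igfbp4 UMIs, and the difference without those cells was not tested. Pericytes had 1 to 9 Igfbp4 UMIs per library, too few for a test. Smooth muscle cells, not tested, had Igfbp4 at 96.9 and 327 CPM in Control against 265 and 194 CPM in Diabetic libraries. Microglia or macrophages, with 19 to 99 cells per library, had Igfbp4 at 140 and 77.9 CPM in Control (15 and 6 UMIs) and 14.3 and 10.7 CPM in Diabetic libraries (7 and 4 UMIs); 1 library held under 20 such cells, so the class was not tested.

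Igfbp3, the main carrier of IGFs in blood, lies on chromosome 11 at 7206086 to 7213923 on the minus strand with no overlapping gene. It was an endothelial gene in these libraries: 76.6 and 104 CPM in Control against 189 and 214 CPM in Diabetic endothelial cells, with at most 19.9 CPM in a pericyte library and 1 or 2 UMIs behind each pericyte value, and 14.9 to 44.1 CPM in smooth muscle cells from 1 to 5 UMIs. The endothelial groups did not overlap, and the log2 fold change was 1.19 ± 0.14 (SE, adjusted p = 0.000485, edgeR). Unlike Igfbp4, the call was kept without the inflamed venular cells, at 0.83 ± 0.14 (SE, adjusted p = 0.00562, edgeR), with 154 and 162 CPM left in the Diabetic libraries. Inflamed venular cells held 285 of 874 and 290 of 724 Igfbp3 UMIs, 32.6% (exact 95% interval 29.5% to 35.8%) and 40.1% (36.5% to 43.7%).

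Arterial cells had the highest Igfbp3 level of the 3 tested subtypes, 169 and 183 CPM in Control against 311 and 318 CPM in Diabetic libraries, but the change was not called (0.83 ± 0.21, SE, adjusted p = 0.0924, edgeR). Venous cells went from 87.4 and 78.6 CPM to 169 and 191 CPM (1.12 ± 0.23, SE, adjusted p = 0.00145, edgeR) and capillary cells from 63.7 and 82.9 CPM to 133 and 124 CPM (0.86 ± 0.15, SE, adjusted p = 0.00338, edgeR). In all 3 both Diabetic libraries were above both Control ones, and no test of a difference between subtypes passed: venous minus capillary was 0.29 ± 0.28 (SE, adjusted p = 0.868) and arterial minus capillary 0.03 ± 0.27 (SE, adjusted p = 0.995, edgeR). DESeq2 gave an adjusted p of 0.122 in venous and 0.169 in capillary cells. The capillary call was lost without Control 1 (adjusted p = 0.118), Diabetic 1 (0.238) or Diabetic 2 (0.0762). In rods Igfbp3 stood at 0.68 to 3.29 CPM and was not called (0.99 ± 0.44, SE, adjusted p = 0.197, edgeR).

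**Figure D3:**
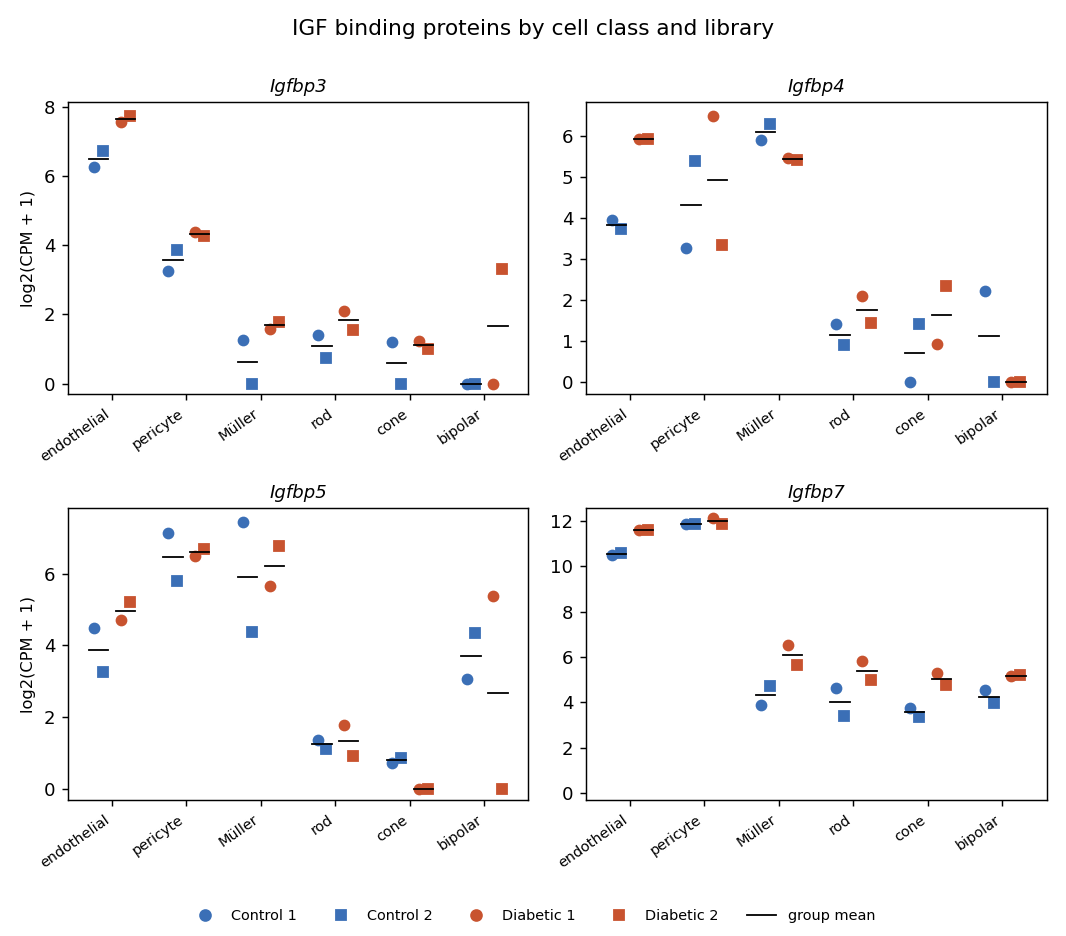
Log2(CPM + 1) of the 4 binding protein genes (y axis) in 6 cell classes, 1 point per library and a line at the group mean. Igfbp3 is highest in endothelial cells, Igfbp7 in pericytes and endothelial cells, and Igfbp4 and Igfbp5 have several classes with overlapping libraries.

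Shares of cells with a UMI lay in the same order of groups as the levels for Igfbp7 and Igfbp3. After each cell was thinned to 1000 UMIs, leaving out 14 to 59 shallower endothelial cells per library, Igfbp7 was seen in 69.9% and 66.8% of Control against 85.3% and 86.0% of Diabetic endothelial cells. Unthinned, these shares were 91.8% and 84.9% against 93.6% and 92.8%. In rods, taken as a background class, the thinned Igfbp7 share was 2.15% and 1.59% in Control and 6.26% and 3.46% in Diabetic libraries, where 79 to 406 cells were left out. Igfbp3 was seen in 7.93% and 9.76% against 13.6% and 13.6% of thinned endothelial cells, and in at most 0.646% of rods. Unthinned, Igfbp3 was in 18.7% and 25.1% against 32.2% and 36.4% of endothelial cells. Median depth was 3079.5 to 4466.5 UMIs in endothelial cells and 3518 to 5717 in rods.

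Igfbp5, a binding protein held in extracellular matrix, lies on chromosome 1 at 72857932 to 72874884 on the minus strand. Its UMIs sat in few cells. In endothelial cells it stood at 21.4 and 8.51 CPM in Control against 25.02 and 35.7 CPM in Diabetic libraries (0.89 ± 0.31, SE, adjusted p = 0.154, edgeR). A single cell held 77 of the 116 Igfbp5 UMIs of Diabetic 1 and another held 71 of the 121 of Diabetic 2. UMIs of Igfbp5 were in 29 of 497, 7 of 219, 25 of 1110 and 17 of 558 endothelial cells of Control 1, Control 2, Diabetic 1 and Diabetic 2, so the share of cells with a UMI did not go up with the level.

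In Müller glia the level also rested on few cells. All 126 Igfbp5 UMIs of Control 1 lay in 5 of 153 cells, 64 of them in 1 cell, against 14, 25 and 44 UMIs in 7, 16 and 11 cells of Control 2, Diabetic 1 and Diabetic 2. Unlike in endothelial cells, the share of Müller cells with an Igfbp5 UMI was higher in both Diabetic libraries, 10.3% and 11% against 3.27% and 5.74%. After thinning, which left out 15 to 38 cells per library, it was 6.4% and 3.23% against 2.17% and 2.04%. These are shares of only 125 and 62 Diabetic and 138 and 98 Control cells, so the thinned shares rest on very few cells with a UMI. Müller glia thus ran from 19.9 CPM in Control 2 to 173 CPM in Control 1, with the Diabetic libraries at 49.5 and 108 CPM between them (-0.33 ± 0.41, SE, adjusted p = 0.857, edgeR). Without Control 1 the sign turned, to 1.94 with an adjusted p of 0.000127. The Igfbp5 change in Müller glia minus that in endothelial cells was -1.40 ± 0.35 (SE, adjusted p = 0.0373, edgeR), and without Control 1 this difference was 0.12 with an adjusted p of 1, and without Diabetic 1 the call was lost (adjusted p = 0.36). Venous minus capillary cells gave -3.33 ± 0.71 (SE, adjusted p = 0.00379, edgeR), which turned to 0.74 without Control 1 and was lost without Diabetic 2 (adjusted p = 0.99), and venous minus arterial cells -5.46 ± 1.08 (SE, adjusted p = 0.000159, edgeR), where the call was lost without Control 1 (adjusted p = 0.693) or Diabetic 2 (0.837). Pericytes had the highest mean Igfbp5 level of the tested classes, 138 and 54.5 CPM in Control against 89.7 and 101 CPM in Diabetic libraries from 4 to 16 UMIs, and did not differ beyond error (-0.21 ± 0.51, SE, adjusted p = 0.975, edgeR). Smooth muscle cells, with 11 to 25 cells per library and so not tested, had Igfbp5 at 115 and 229 CPM in Control against 517 and 626 CPM in Diabetic libraries, from 13, 14, 39 and 42 UMIs.

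Igf2, a fetal growth hormone made from an imprinted gene, lies on chromosome 7 at 142650766 to 142666816 and shares that span with Gm49394 and Mir483 on the same strand and Igf2os on the other, so its few counts are uncertain. Endothelial cells held 0 and 0 Igf2 UMIs in Control and 1 and 1 in Diabetic libraries, and pericytes, smooth muscle cells and microglia or macrophages had none. Müller glia had the highest level, 4.25 to 8.25 CPM from 2 to 6 UMIs per library. In rods 30 and 14 against 47 and 24 UMIs of Igf2 gave 0.81 and 0.79 against 1.503 and 1.13 CPM, which was not called (0.63 ± 0.34, SE, adjusted p = 0.270, edgeR). The antisense gene Igf2os had 12 and 4 against 30 and 12 UMIs in rods. Of the other ligands, Igf1 was found in bipolar cells, at 187 and 179 CPM in Control against 133 and 215 CPM in Diabetic libraries, with overlapping groups (log2 fold change -0.16 ± 0.29, SE, adjusted p = 0.992, edgeR). Microglia or macrophages had Igf1 at 12.99 to 46.6 CPM from 1 to 11 UMIs, and endothelial cells had 0 to 3 Igf1 UMIs per library. Ins2 had 2 or 3 UMIs per library in rods and 0 to 3 in Müller glia, and Ins1 had none in the classes tested.

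Igf1r, the receptor for both IGFs, spans chromosome 7 from 67952827 to 68233668 with no overlapping gene. It was an endothelial-enriched receptor gene in these libraries, at 864 and 797 CPM in Control against 876 and 830 CPM in Diabetic endothelial cells, and the other 5 tested classes lay at or below 359 CPM in every library. Müller glia, rods, bipolar cells, cones and pericytes followed in that order of mean level, from 313 to 216 CPM, and each neighbouring pair in that order overlapped. The endothelial groups overlapped, with a log2 fold change of 0.05 ± 0.10 (SE, adjusted p = 0.868, edgeR). Without the inflamed venular cells the Diabetic libraries stood at 959 and 908 CPM of Igf1r, above both Control libraries, and the change was not called there either. The Igf1r changes in pericytes (0.49 ± 0.34), rods (0.07 ± 0.07), cones (0.17 ± 0.12), bipolar cells (0.21 ± 0.24) and Müller glia (-0.05 ± 0.19, all SE) were not called either. Among untested classes, microglia or macrophages had a mean Igf1r level of 15.8 CPM in Control against 56.7 CPM in Diabetic libraries. Smooth muscle cells had 268 against 211 CPM, and the groups did not overlap in either class.

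Under the flat total of all endothelial cells the subtypes differed. Capillary cells had the highest Igf1r level of the tested subtypes, 991 and 957 CPM in Control against 1041 and 1021 CPM in Diabetic libraries, and the change was not called (0.06 ± 0.10, SE, adjusted p = 0.888, edgeR). Venous cells had 521 and 397 CPM in Control against 858 and 815 CPM in Diabetic libraries, which was called higher (0.88 ± 0.17, SE, adjusted p = 0.00049, edgeR). Arterial cells had 676 and 772 CPM against 577 and 462 CPM, lower in both Diabetic libraries but not called (-0.49 ± 0.18, SE, adjusted p = 0.291, edgeR). The venous Igf1r change exceeded the capillary one by 0.82 ± 0.14 (SE, adjusted p = 5.81e-05) and the arterial one by 1.36 ± 0.20 (SE, adjusted p = 6.64e-09, edgeR). Both differences passed in all 6 alternatives run for them.

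Insr, the insulin receptor gene, lies on chromosome 8 from 3122061 to 3279617 on the minus strand, with Gm16180 and the pseudogene Vmn2r-ps88 opposite. Its endothelial level was the steadiest of all members: 222, 220, 218 and 221 CPM in Control 1, Control 2, Diabetic 1 and Diabetic 2, from 285 to 1009 UMIs (log2 fold change -0.01 ± 0.10, SE, adjusted p = 0.986, edgeR). Müller glia, bipolar cells, pericytes, rods and cones followed with means of 62.2 to 82.5 CPM, each overlapping its neighbour. No change was called in Müller glia, bipolar cells, rods or cones (in bipolar cells 0.0248% of 4036 genes were called). In pericytes the level rested on 1 to 18 UMIs, too few for a test within this class. The subtypes again moved apart: venous cells stood at 162 and 147 against 232 and 249 CPM, arterial cells at 205 and 245 against 146 and 167 CPM, and capillary cells at 244 and 250 against 215 and 204 CPM. None of the 3 Insr changes was called, at 0.65 ± 0.20 (adjusted p = 0.0608), -0.54 ± 0.23 (0.368) and -0.25 ± 0.11 (0.371) by edgeR, each with its SE. The venous Insr change exceeded the capillary one by 0.90 ± 0.20 (SE, adjusted p = 0.00465) and the arterial one by 1.17 ± 0.29 (SE, adjusted p = 0.00828, edgeR). The first was lost without Control 2 (adjusted p = 0.0908) or Diabetic 2 (0.179), and the second without Control 2 (0.321), Diabetic 1 (0.238) or Diabetic 2 (0.128).

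**Figure D4:**
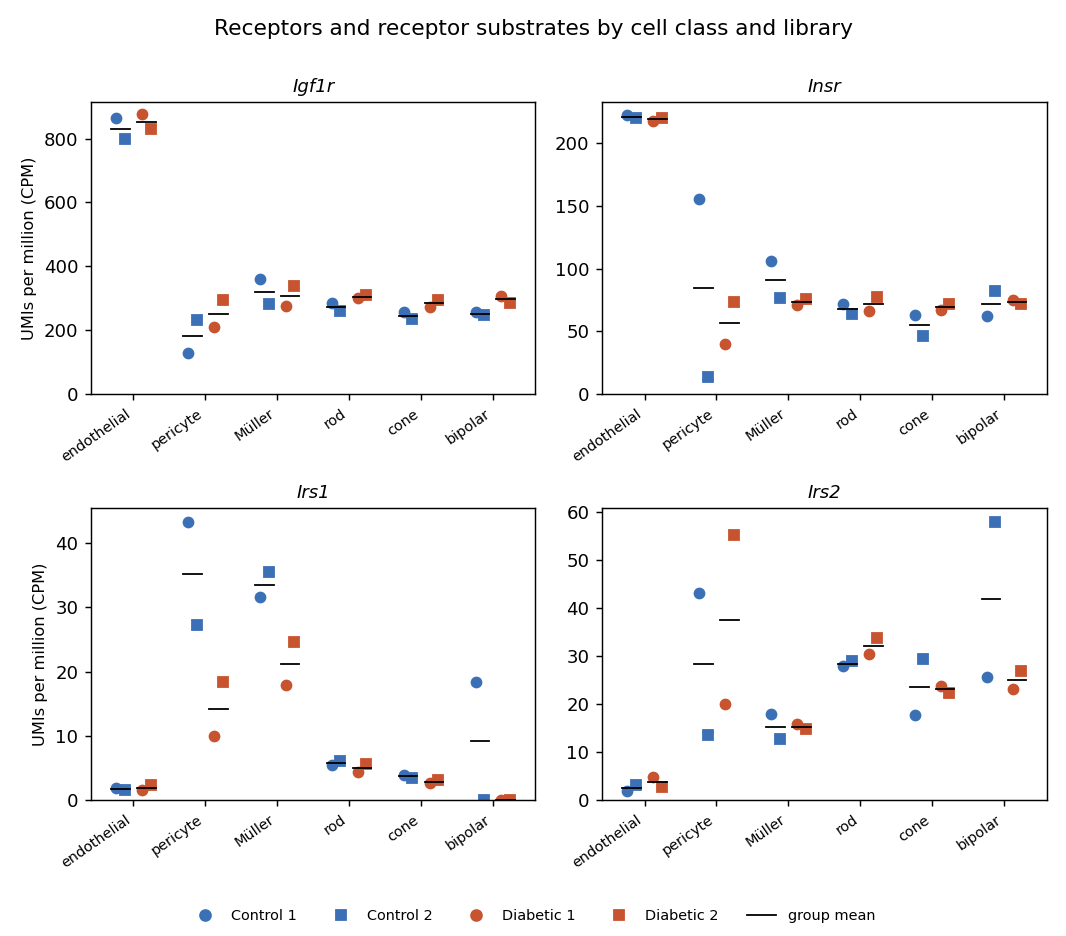
CPM (y axis) of the receptor and substrate genes in 6 cell classes, 1 point per library and a line at the group mean. Igf1r and Insr stand highest in endothelial cells, near 842 and 220 CPM with overlapping or near-equal groups. Irs1 and Irs2 have their lowest means there, near 1.82 and 3.09 CPM.

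Endothelial cells, first of the 6 tested classes by mean level of both receptor genes, were last for both substrate genes. Irs1, on chromosome 1 from 82233101 to 82291416 with Gm9747 opposite, had 4, 2, 7 and 8 UMIs in the endothelial cells of Control 1, Control 2, Diabetic 1 and Diabetic 2, or 1.51 to 2.36 CPM. Endothelial cells had the lowest mean of the 6 tested classes, and their range did not reach that of cones, the next class, at 2.699 to 3.96 CPM. Bipolar cells, above cones by mean, ran from 0 to 18.3 CPM with a Diabetic mean of 0, so their range overlapped the endothelial one. Müller glia had the highest mean Irs1 level, 31.6 and 35.5 CPM in Control against 17.8 and 24.6 CPM in Diabetic libraries, both lower in the Diabetic group but not called (-0.66 ± 0.41, SE, adjusted p = 0.606, edgeR). In rods Irs1 stood at 4.38 to 6.01 CPM with overlapping groups (-0.30 ± 0.20, SE, adjusted p = 0.361, edgeR).

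Irs2, on chromosome 8 from 10984681 to 11008458 with 9530052E02Rik opposite, had 4, 4, 22 and 9 UMIs in endothelial cells of the same libraries, or 1.86 to 4.75 CPM. The other 5 tested classes lay above that range in every library, from Müller glia at 12.8 to 17.9 CPM to bipolar cells at 23.1 to 58.0 CPM. Rods, the best-covered class, had 28.0, 28.9, 30.4 and 33.8 CPM of Irs2 with both Diabetic libraries slightly higher (0.08 ± 0.08, SE, adjusted p = 0.573, edgeR). In cones Irs2 was not called (-0.01 ± 0.27, SE, adjusted p = 0.996, edgeR).

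Genes whose levels were most like a member were sought over 24 summed libraries, the 6 tested classes in 4 libraries each, among 8056 genes of at least 20 CPM on average. These points share libraries and classes, so the correlations describe class patterns only. Igfbp7 was most like Tagln2 (Pearson's r = 0.98), Sparcl1 (0.98) and Rhob (0.97). Igfbp3 was most like Fli1 (0.97), an endothelial transcription factor gene, Leprot (0.97) and Nfkbia (0.96), which encodes the inhibitor of NF-kB. Igf1r was most like Vwa1 (0.90), Slc2a1 (0.90), the glucose transporter gene of barrier endothelium, and Agfg1 (0.90), and Insr most like Znfx1 (0.92), Slc39a10 (0.89) and Srgap2 (0.87). Igfbp4 was led by Pdcd6 (0.93), Cp (0.92) and Gng5 (0.91), Igfbp5 by Cdc42ep4 (0.91), Parva (0.91) and Lamp2 (0.91), and the sparse Igf2 by Gm3764 (0.94), Gpm6b (0.94) and Greb1 (0.93). Irs1 was led by Col4a5 (0.87), Gpx8 (0.84) and Rgma (0.84), and Irs2 by Atp1b2 (0.88), Cnrip1 (0.87) and Chpf (0.85).

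The pathway's other genes, 71 in 4 lists, were read beside the members. In endothelial cells 4 of their 54 tested genes were called, 3 higher and 1 lower, against 4.65% of all genes. Of 11 other ligands, receptors and binding proteins 3 were tested and Igfbp6 was higher, from 0 and 1 UMIs in Control to 53 and 44 in Diabetic libraries, 46 and 35 of these in inflamed venular cells (adjusted p = 0.0014, edgeR). Of 7 proteases of binding proteins and their inhibitors 4 were tested. Adamts1, a matrix protease gene, rose from 186 and 173 to 285 and 315 CPM (0.75 ± 0.11, SE, adjusted p = 0.00197, edgeR), and Timp3, a protease inhibitor gene, fell from 809 and 978 to 599 and 559 CPM (-0.62 ± 0.11, SE, adjusted p = 0.00915, edgeR). Of 15 known FOXO targets 12 were tested and Pdk4, an inhibitor of glucose oxidation, was higher, at 2.32 and 3.87 against 8.41 and 13.6 CPM (1.88 ± 0.48, SE, adjusted p = 0.0465, edgeR). DESeq2 called none of the FOXO targets.

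The 38 genes that relay the signal from the receptors showed no called change in endothelial cells, where 35 were tested with a median log2 fold change of -0.11 and 8 had an unadjusted p under 0.05; DESeq2 called 0 of them as well. In venous cells Adamts1 (1.60 ± 0.22, SE, adjusted p = 1.47e-06) and the exchange factor gene Sos1 (1.13 ± 0.29, SE, adjusted p = 0.0163, edgeR) were called higher, and in capillary cells Adamts1 (0.60 ± 0.12, SE, adjusted p = 0.0119, edgeR). In rods 4 of 36 relay genes were called, 1 higher and 3 lower, and 3 of 11 FOXO targets, 2 higher and 1 lower, where 4.80% of all genes were called higher and 4.15% lower. Of the 4 tested protease and inhibitor genes 1 was called higher in rods. The largest called changes of rods over the 4 lists were Eif4ebp1, a brake on translation (1.04 ± 0.21), the FOXO target Ccng2 (-0.60 ± 0.12) and the protease gene Htra1 (0.54 ± 0.08, all SE, adjusted p = 0.0319, 0.0339 and 0.0184, edgeR). Cones had Htra1 higher (1.38 ± 0.29, SE, adjusted p = 0.00196) and Klf2 (1.12 ± 0.27, SE, adjusted p = 0.0103, edgeR). DESeq2 called 0 genes of the 4 lists in cones and in capillary cells. In venous cells it called 0 relay genes and 1 gene of the proteases and inhibitors. Klf2 is itself strong in endothelial cells, 2503 to 3449.5 CPM, and its cone level of 13.5 to 40.5 CPM moved with the endothelial marker sum given above.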

How the data were processed

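The deposited matrices hold raw UMI counts per gene and barcode, produced by the authors' run of Cell Ranger 7.0.0, per the file headers; the submitters' processing notes also name STAR 2.7.10b and mm10. Barcodes were kept from 500 UMIs and 300 genes upwards, with a mitochondrial share up to 20%. Each was assigned to a class by the share of its UMIs in marker lists, with a minimum for its own list, a maximum for other classes' lists and at least 3 distinct markers. No maximum was set for rod markers in cones, pericyte markers in smooth muscle cells or microglial markers in neutrophils. The minimums (90 per 10000 UMIs for endothelial cells) were set after the marker distributions had been seen. No doublet caller was run, and mixtures of these 3 pairs of classes were not removed. Libraries shared 5 to 9 barcode sequences. Counts were summed per library and class, and any class with 20 or more cells in each library was tested with edgeR 4.0.16 (TMM, filterByExpr, quasi-likelihood F test, two-sided, Benjamini-Hochberg adjustment, R 4.3.3). The SE is the fold change over the square root of F. Differences between classes were tested as an interaction with the library as a block. Alternatives were DESeq2 1.42.0, other filters and gates, Leiden clusters (scanpy 1.11.5) and leaving out each library. The script was tested on simulated data. Every member was named, with pathway genes called in endothelial cells, at most 3 more per other class, and 3 genes most like each member on log2(CPM + 1). The members and lists were chosen with earlier results of these data known.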

Additional observations from a re-analysis of the deposited data

Results flagged for a closer look

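For 11 comparisons the test of the difference between a pair of cell types passed, each by edgeR's quasi-likelihood test of the interaction with Benjamini-Hochberg adjustment over all genes. The change of Igfbp7 was lower in pericytes than in endothelial cells (-0.99). The changes of Igfbp4 and Igfbp5 were lower in Müller glia than in endothelial cells (-2.80 and -1.40). Against capillary cells, venous endothelial cells differed for Igfbp7 (1.46), Igf1r (0.82), Insr (0.90) and Igfbp5 (-3.33). Against arterial cells, venous cells differed for Igfbp7 (1.28), Igf1r (1.36), Insr (1.17) and Igfbp5 (-5.46). All are differences of log2 fold changes, and those against endothelial cells were not fitted without the inflamed venular cells.

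The Igfbp4 difference of Müller glia and the venous differences of Igfbp7 and Igf1r passed in every alternative run for them, which were 6 for each. The other 6 comparisons lost the call when at least 1 library was left out. Those of Igfbp5 rest on few cells, with 77 of its UMIs in 1 endothelial cell of Diabetic 1 and 64 in 1 Müller cell of Control 1.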

How the results depend on the processing

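In endothelial cells the calls of Igfbp3 (log2 fold change 0.73 to 1.41) and Igfbp7 (0.84 to 1.29) passed in all 15 alternatives. Igfbp4 passed in 13 of 14 and ranged from 0.65, without inflamed venular cells, to 2.36; with equal cells per subtype it fell under the filter. The looser gate, DESeq2 and the block for subtypes, and the alternatives for the differences between classes, were chosen after seeing the data.

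Counts of called genes moved by over 1.5 times as follows. DESeq2 gave 278 in endothelial cells, 8 in cones, 14 in arterial, 68 in venous and 63 in capillary cells. Without a filter on low counts there were 964 in endothelial cells, 1 in pericytes, 3107 in rods, 12 in bipolar cells and 93 in Müller glia. A stricter gate gave 174 in endothelial cells and 25 in cones. Endothelial cells had 231 without inflamed venular cells and 81 with equal cells per subtype. At 1000 UMIs or more there were 3 in pericytes and 98 in Müller glia, and at 10% mitochondrial UMIs or less 1 and 86. A looser gate gave 5 in pericytes and 3 in bipolar cells. Leiden clusters gave 318 in cones and 888 in Müller glia. Leaving out 1 library gave 366 to 1026 in endothelial cells, 2 to 7 in pericytes, 42 to 1901 in rods, 24 to 182 in cones, 6 to 15 in bipolar cells, 0 to 54 in Müller glia, 40 to 122 in arterial, 103 to 247 in venous and 55 to 367 in capillary cells. Where a fit left a group with 1 library, that library was assumed to vary like the others. The count was 1026 in endothelial cells and 0 in Müller glia without Control 2, 42 and 534 in rods without Diabetic 1 and Diabetic 2, 26 and 24 in cones without Control 2 and Diabetic 1, 103 and 117 in venous cells and 55 and 58 in capillary cells without Diabetic 1 and Diabetic 2, and 367 and 269 in capillary cells without Control 2 and Control 1. In arterial cells it was 122, 66 and 50 without Control 1, Control 2 and Diabetic 1. In pericytes and bipolar cells leaving out any library moved it.

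The replicate numbers shared by the groups could not be shown to pair libraries, with 2 pairs and same-number correlations of deviations of 0.14 in endothelial cells, 0.45 in rods and 0.02 in Müller glia. With the replicate block 1359 genes were called in endothelial cells, 8 in pericytes, 4879 in rods, 12 in bipolar cells, 135 in Müller glia and 17 in arterial cells. The block added calls of Igfbp5 in endothelial cells (0.85), of Igfbp3, Igfbp4 and Igfbp7 in rods (1.04, 0.88 and 1.28) and of Igfbp4 and Insr in venous cells (1.83 and 0.65), turned Irs2 in cones to 0.032 and changed no other call of a member.

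Signs turned for values near 0 or from few cells, and the cause was not tested. Endothelial Insr was 0.020 without the filter, 0.030 at 10% mitochondrial UMIs, 0.027 in Leiden clusters, 0.10 with the looser gate and 0.30 with equal cells per subtype. Endothelial Igfbp5 was -0.69 with the stricter gate, -0.22 in Leiden clusters and -0.28 with the looser gate. Over its 15 alternatives it ran from -0.69 to 2.42, and the replicate block was not the only one in which it was called. In Müller glia Igfbp5 was 3.27 at 10% mitochondrial UMIs and 1.35 with the looser gate, Igf1r 0.17 in Leiden clusters and 0.024 with the looser gate, and Igfbp4 0.056 in Leiden clusters. Leiden clusters gave -0.017 for endothelial Igf1r and 0.17 for Irs2 in cones. Insr was -0.032 in bipolar cells without the filter and 0.039 in rods with the stricter gate, and the looser gate gave Igf1r in pericytes -0.14 and Igfbp5 in rods -0.078. Igfbp5 in capillary cells was -0.56 with the stricter subtype gate.

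Leaving out 1 library gave ranges that crossed 0 for endothelial Igf1r (-0.0028 to 0.10) and Insr (-0.035 to 0.030), pericyte Igfbp5 (-0.64 to 0.76) and Igfbp7 (-0.028 to 0.16), rod Insr (-0.14 to 0.084), Igfbp5 (-0.75 to 0.70) and Irs2 (-0.00054 to 0.15), cone Irs2 (-0.37 to 0.35), bipolar Insr (-0.20 to 0.19), Müller Igfbp5 (-1.14 to 1.94) and Igf1r (-0.19 to 0.13), capillary Igfbp5 (-1.21 to 2.16), and the differences of Igfbp5 between Müller glia and endothelial cells (-1.70 to 0.12) and between venous and capillary cells (-5.15 to 0.74). Depth limits pericytes, where 3 of 9 members could be tested. Of 81 class levels recomputed at 1000 UMIs or with the stricter gate, 75 moved by less than the SD between libraries.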
